A study of Homo sapiens with 12 samples.

Results

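Chromosome 8 held 85944 of the 1173156 ATAC-seq peaks called on the 22 autosomes in 12 libraries of human acute myeloid leukaemia (AML) cells. Every peak on chromosome 8 was taken, with no selection on its strength, and set against the peaks of the other 21 autosomes of the same library. ATAC-seq marks open chromatin by the ends that the transposase Tn5 cuts into accessible DNA. A peak is a stretch where these ends pile up above their surroundings.

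The libraries came from 3 cell lines. In MOLM13 and MV4-11 the MLL1 (KMT2A) gene is rearranged, so that its product, a histone methyltransferase, is joined to part of another protein. OCI-AML3 has a mutation of NPM1, the gene of a nucleolar protein. Each line gave 2 control libraries and 2 libraries of cells given 500 nM VTP50469 for 16 h, an inhibitor of the binding of menin to MLL1. All cells had been frozen before the assay. Per the study's methods, MOLM13 and OCI-AML3 grew in RPMI-1640 and MV4-11 in IMDM, so that line and medium cannot be told apart for MV4-11. Nothing in the labels says whether the 2 libraries of a group came from separate cultures, so the p-values measure the spread between these libraries, which may be technical. No copy number was measured in these samples.

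A cell with an additional copy of a chromosome has more template from which Tn5 can cut, both at open sites and in the closed DNA between them. Trisomy 8 is among the most frequent chromosome gains in AML, either alone or beside other changes, and MYC and KAT6A, both of which can drive leukaemia, lie on this chromosome. The short arm is called 8p and the long arm 8q. In bulk libraries, more copies of a locus in each cell and more cells with an open locus cannot be told apart from the reads over a peak alone. The reads around the peaks were examined as a further measure. These reads also draw on open sites nearby, so they cannot tell copies and openness apart either. Which of these lay behind a difference was not tested.

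The 4 MOLM13 libraries held 6591 and 7486 chromosome 8 peaks as controls and 7869 and 8345 after VTP50469. MV4-11 held 8141 and 8333 as controls and 7681 and 9375 after VTP50469, and OCI-AML3 held 5157, 6429, 5556 and 4981 in the same order. The total over all autosomes ran from 67424 peaks to 141695 and was highest in the MV4-11 libraries, so numbers of peaks cannot be compared between lines as they stand. As a share of autosomal peaks, chromosome 8 took 8.48% and 8.29% in the MOLM13 controls and 8.41% and 8.28% after VTP50469. The MV4-11 libraries had 6.65%, 6.47%, 6.80% and 6.62% and those of OCI-AML3 7.46%, 6.95%, 7.34% and 7.39%, in that order. The 3 lines did not overlap, with MOLM13 at the top, OCI-AML3 between the others and MV4-11 at the bottom.

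The mean share was 8.36% ± 0.0955 in MOLM13, 7.28% ± 0.231 in OCI-AML3 and 6.63% ± 0.138 in MV4-11 (SD, n = 4 each). MOLM13 exceeded OCI-AML3 by 1.08 percentage points and MV4-11 by 1.73, and MV4-11 was 0.65 points below OCI-AML3, with a difference of -0.65. Each difference reached p = 0.0286 in a two-sided exact permutation test over libraries, the smallest p that 4 against 4 libraries allow, and also after Benjamini-Hochberg adjustment over the 3 pairs. With stronger peaks only, of −log10 q of at least 5, MV4-11 against OCI-AML3 was -0.15 points and did not pass (exact permutation test, adjusted p = 0.0857). Among the 22 autosomes chromosome 8 ranked 2 by share in MOLM13 and 4 in the other lines. It holds 715 of 19126 autosomal protein-coding genes, or 3.74%, so in all libraries its share of peaks was above its share of genes. Per Mb it carried 52.3 ± 5.13 peaks in MOLM13, with 57.9 ± 4.94 for MV4-11 and 38.2 ± 4.46 for OCI-AML3, which ranked 2, 3 and 2 among the autosomes.

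**Figure D1:**
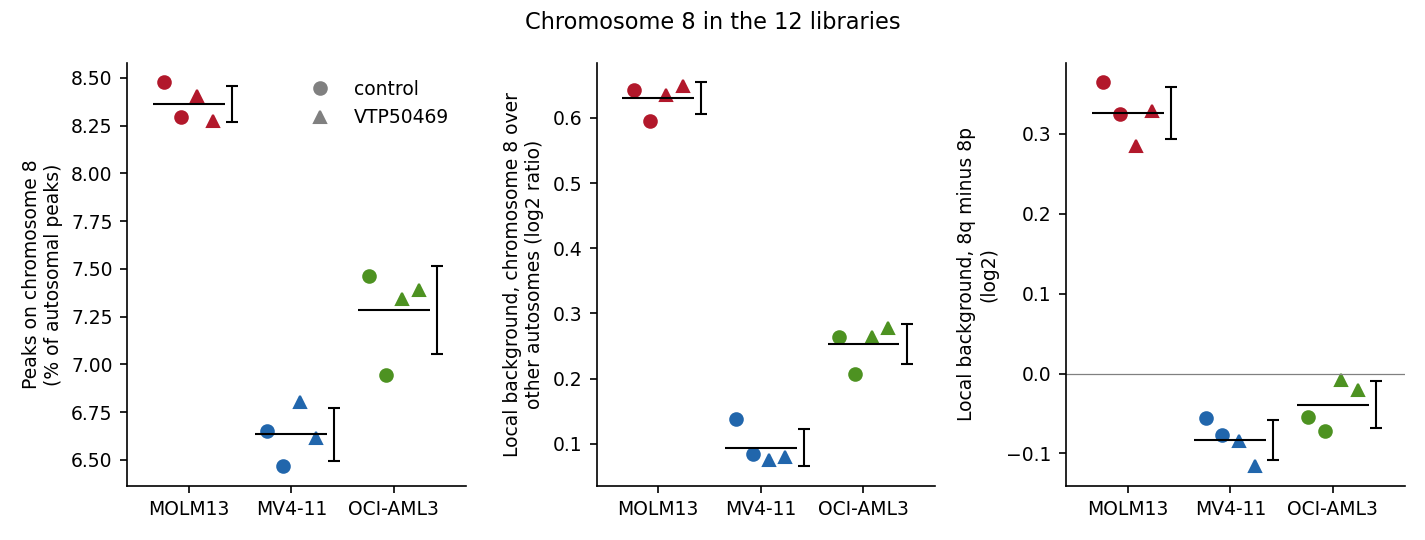
Chromosome 8 in each of the 12 libraries: percent of autosomal peaks (left), log2 ratio of the local background to that of the other autosomes on regions called in all libraries (middle), and log2 background of 8q minus 8p (right). Circles are controls, triangles VTP50469, the line is the mean and the bar the SD of the 4 libraries of a line. MOLM13 lies above the other lines in all 3 panels, with a mean share of 8.36%.

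Chromosome 8 peaks lay less often at gene starts than other peaks. Between 6.89% and 12.2% of them fell in a promoter, the 1 kb on either side of a gene's start, against 12.2% to 23.1% on the other autosomes. Between 43.7% and 47.2% lay between genes, against 36.4% to 39.6% elsewhere. The 2 arms differed in the same respect, since 7.75% to 13.5% of 8p peaks and 6.51% to 11.9% of 8q peaks were at promoters. In each library the promoter share was higher on 8p than on 8q. Gene starts were used only for coding and long noncoding RNA genes with a known strand. These were 863 of 1602 on chromosome 8 and 23271 of 36921 on all autosomes, a smaller share on chromosome 8. Peaks at starts left out count as outside promoters, and the part of this in the shares was not tested.

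Peaks of chromosome 8 were weaker than those of other autosomes in every library. The deposited fold, the reads over a summit divided by the background around it, had a median of 4.95 ± 0.112 on chromosome 8 and 5.38 ± 0.136 elsewhere in MOLM13 (SD, n = 4). The corresponding medians were 5.54 and 5.87 for MV4-11 and 4.87 and 5.34 for OCI-AML3. In each of the 3 lines chromosome 8 had the lowest mean log2 fold of the 22 autosomes. Within chromosome 8, the MOLM13 median fold was 5.19 ± 0.201 on 8p and 4.87 ± 0.0903 on 8q.

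On the log2 scale the chromosome 8 median fold stood at -0.12 relative to the other autosomes in MOLM13, with -0.083 for MV4-11 and -0.13 for OCI-AML3. No pair of lines differed past the threshold of 0.05 (exact permutation tests, adjusted p = 0.229 for MOLM13 against OCI-AML3 and 0.0857 for both pairs with MV4-11). Without the peaks at promoters the values were -0.098, -0.088 and -0.071. The summit strength, −log10 of the peak's Poisson p, had a chromosome 8 median of 7.33 ± 0.244 in MOLM13, against 7.83 elsewhere. Its log2 ratio was -0.095 in MOLM13, with -0.082 for MV4-11 and -0.10 for OCI-AML3, and no pair differed past the threshold (exact permutation tests, adjusted p = 0.857 for each pair).

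Those medians cover different sets of peaks in each library, since a library also adds its own weak peaks. On the 1513 chromosome 8 regions that were called in all 12 libraries the order changed. A region is a stretch of overlapping peaks merged over the libraries. There the fold of chromosome 8 relative to the other autosomes was 0.085, 0.086, 0.048 and 0.066 on the log2 scale in the MOLM13 libraries, and it was below 0 in all 8 libraries of the other lines. The MOLM13 mean exceeded that of OCI-AML3 by 0.12 and that of MV4-11 by 0.11 (exact permutation tests, adjusted p = 0.0429 for each). Thus the fold of the peaks called in every library was higher in MOLM13, whereas the fold over all peaks was not.

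With 1 read added to both the summit and its surroundings, the fold divides out the surroundings only in part. The reads behind each peak were therefore examined as well. Each fold and p fix a whole number of reads over the summit and the number of reads that the peak caller took as local background. That background is an estimate from the neighbourhood of the peak and from the genome-wide mean. Over all peaks, its median on chromosome 8 was 1.15 ± 0.0455 reads in MOLM13 against 0.803 ± 0.0251 on the other autosomes (SD, n = 4). The log2 ratio of chromosome 8 to the rest was 0.52 in MOLM13, with 0.17 for MV4-11 and 0.18 for OCI-AML3. MOLM13 exceeded OCI-AML3 by 0.34 and MV4-11 by 0.35 (exact permutation tests, adjusted p = 0.0429 each), and MV4-11 against OCI-AML3 gave -0.014 (adjusted p = 0.4, exact permutation test).

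On the regions called in all 12 libraries, the background ratio was 0.64, 0.60, 0.63 and 0.65 in the MOLM13 libraries. It was 0.14, 0.085, 0.075 and 0.080 for MV4-11 and 0.26, 0.21, 0.26 and 0.28 for OCI-AML3, with controls first. The lines again did not overlap, in the same order as for the share of peaks. MOLM13 exceeded OCI-AML3 by 0.38 and MV4-11 by 0.54, and MV4-11 against OCI-AML3 stood at -0.16 (exact permutation tests, adjusted p = 0.0286 for each). As plain arithmetic, the log2 of 3 over 2 is 0.58 and that of 4 over 3 is 0.42. The background ratios cannot be read as copies on this scale. The background also draws on the genome-wide mean and on open sites nearby, and the copies of the other autosomes are not known. Set against the median of all autosomal regions, chromosome 8 had the highest background of the 22 autosomes in MOLM13 and in OCI-AML3 and ranked 4 in MV4-11.

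The difference sat mostly on 8q. Of chromosome 8 peaks, 73.8%, 74.0%, 73.5% and 73.4% were on 8q in the MOLM13 libraries, against 69.7% to 70.2% in MV4-11 and 70.4% to 70.7% in OCI-AML3. The mean was 73.7% ± 0.252 in MOLM13 and 70.5% ± 0.111 in OCI-AML3 (SD, n = 4), and each pair of lines differed (exact permutation tests, adjusted p = 0.0286). MOLM13 lay 3.15 percentage points above OCI-AML3 and 3.67 above MV4-11.

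As a share of autosomal peaks, 8q was higher in MOLM13 than in MV4-11 by 0.41 ± 0.024 on the log2 scale (SE) and than in OCI-AML3 by 0.26 ± 0.024. These were tested with limma over 39 arms of the autosomes, with Benjamini-Hochberg adjusted p = 1.39e-08 and 7.04e-07. Arms differed between lines on most autosomes: 82.1% of all arms passed this test for MOLM13 against MV4-11, 66.7% for MOLM13 against OCI-AML3 and 87.2% for MV4-11 against OCI-AML3. A call of an arm is therefore no mark of chromosome 8, and the size and rank say more. The 8q difference ranked 2 of 39 for MOLM13 against MV4-11 and 5 for MOLM13 against OCI-AML3.

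For 8p, MOLM13 exceeded MV4-11 by 0.15 ± 0.023 (limma, adjusted p = 8.85e-05). Its difference from OCI-AML3 was 0.036 ± 0.023 and did not pass (adjusted p = 0.166), although it did without the first OCI-AML3 control, where it was 0.061. MV4-11 lay below OCI-AML3 on both arms, by -0.11 ± 0.023 on 8p and -0.15 ± 0.024 on 8q (limma, adjusted p = 0.000627 and 0.000123), which the stronger peaks did not pass, at -0.045 and -0.030. The ratios are shares of each library's own peaks, so a gain on one chromosome lowers the share of the others.

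**Figure D2:**
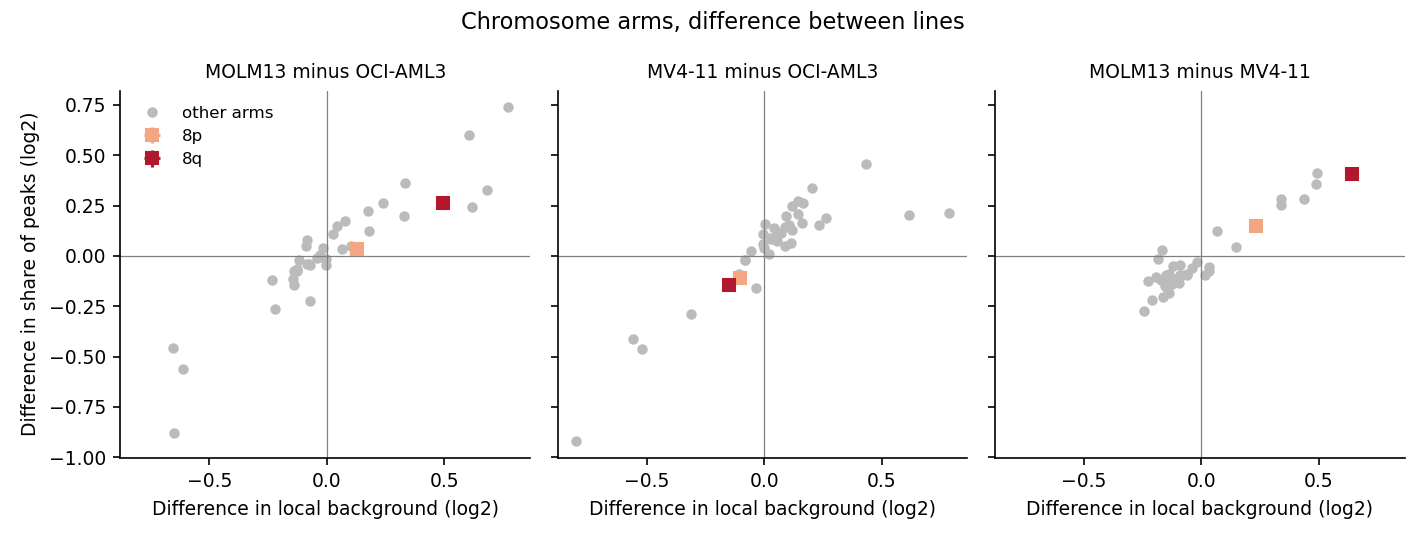
The 39 autosomal arms in each pair of lines: difference in local background (x, log2) against difference in share of autosomal peaks (y, log2). Grey points are the other arms, and 8p and 8q are coloured with bars of 1 SE. The 8q point lies at 0.64 and 0.41 for MOLM13 minus MV4-11, the highest background difference of all arms.

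The local background gave the same order with a wider gap between the arms. Relative to the median of all autosomal regions, the 8q background was 0.73, 0.67, 0.71 and 0.74 in the MOLM13 libraries on the log2 scale. It was 0.11, 0.075, 0.067 and 0.038 for MV4-11 and 0.23, 0.15, 0.25 and 0.25 for OCI-AML3. For 8p the background was 0.37, 0.35, 0.42 and 0.41 in MOLM13, with 0.15 to 0.17 for MV4-11 and 0.22 to 0.29 for OCI-AML3. On each arm the lines did not overlap. By limma over the 39 arms, 8q differed by 0.64 ± 0.022 between MOLM13 and MV4-11, rank 1 of 39, and by 0.49 ± 0.022 between MOLM13 and OCI-AML3, rank 5 (adjusted p = 3.96e-12 and 1.81e-11). The share of all arms that passed was 89.7% and 84.6%, and it was 76.9% for MV4-11 against OCI-AML3.

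On 8p the background differences were 0.23 ± 0.018 and 0.13 ± 0.018 for the same pairs (limma, adjusted p = 2.46e-08 and 9.96e-06). MV4-11 was below OCI-AML3 by -0.15 ± 0.022 on 8q and -0.10 ± 0.018 on 8p (limma, adjusted p = 2.93e-05 and 0.000107). The gap between the arms, 8q minus 8p, was 0.36, 0.33, 0.28 and 0.33 in the MOLM13 libraries. It lay from -0.12 to -0.056 in MV4-11 and from -0.072 to -0.0084 in OCI-AML3. MOLM13 was above 0 in 4 of 4 libraries and the others below 0 in 8 of 8. The mean gap exceeded that of OCI-AML3 by 0.36 and that of MV4-11 by 0.41 (exact permutation tests, adjusted p = 0.0429 each), whereas MV4-11 and OCI-AML3 differed by -0.044 (adjusted p = 0.0571).

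Along the chromosome, peaks were counted in bins of 5 Mb. The bin from 140 to 145 Mb, near the end of 8q and with 98 protein-coding genes, held the most, 5075 over the 12 libraries. It was followed by 100 to 105 Mb with 4287 peaks and 27 genes. Apart from the bin at the end of the chromosome, from 145 Mb, with 81 peaks, the fewest, 1882, fell in 45 to 50 Mb, which spans the centromere. The next fewest, 1903, fell in 135 to 140 Mb, with 4 genes. The widest stretch with no peak in any library ran from 43725061 to 46012785, or 2.29 Mb.

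Of 29 tested chromosome 8 bins, the share of peaks was higher in MOLM13 than in MV4-11 in 23 and lower in 0 (limma over 549 autosomal bins), where 20.8% of all bins were higher and 29.3% lower. At an unadjusted p under 0.05, 25 of the 29 passed in either direction, against 58.1% of all bins. Against OCI-AML3, MOLM13 was higher in 17 bins and lower in 2, with 29.9% and 31.1% over all bins. MV4-11 was higher than OCI-AML3 in 5 bins and lower in 15, with 36.8% and 30.6% over all bins. Both bins in which MOLM13 was lower than OCI-AML3 were on 8p. With the stronger peaks only, these 2 became 0 and the 15 became 7.

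The local background of the same bins separated MOLM13 more evenly. MOLM13 exceeded MV4-11 in 29 of 29 bins (29.3% of 516 autosomal bins were higher and 35.5% lower), by a median of 0.59 and a range of 0.15 to 0.91. It exceeded OCI-AML3 in 24 bins and fell below it in 2 (28.3% and 33.3% over all bins), with a median of 0.44. MV4-11 was higher than OCI-AML3 in 3 bins and lower in 18 (30.2% and 33.3%). All bins here were tested with limma on the regions called in all 12 libraries.

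The MOLM13 difference in local background changed level at the centromere, which lies near 45.2 Mb. In the share of peaks, only the difference from OCI-AML3 rose there, from 0.30 at 40 to 45 Mb to 0.52 at 45 to 50 Mb. The difference from MV4-11 was 0.29 and then 0.21. By background, in the last bin of 8p, 40 to 45 Mb, MOLM13 exceeded MV4-11 by 0.15 ± 0.044 and OCI-AML3 by 0.11 ± 0.044 (limma, adjusted p = 0.0084 and 0.0365). In the next bin, whose 28 regions all lie on 8q, the differences were 0.48 ± 0.051 and 0.64 ± 0.051 (limma, adjusted p = 1.19e-06 and 2.47e-08). From there to the end of 8q, MOLM13 exceeded MV4-11 in 20 of 20 bins, by 0.41 to 0.91, and OCI-AML3 in 19 of 20.

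The exception was the bin from 135 to 140 Mb. There the background was 0.23, 0.13, 0.38 and 0.12 in MOLM13 and 0.37, 0.096, 0.39 and 0.22 in OCI-AML3, which overlap. In MV4-11 it ran from -0.58 to -0.32, below every library of the other lines. MOLM13 minus OCI-AML3 was -0.055 (limma, adjusted p = 0.553) and MV4-11 minus OCI-AML3 was -0.73 ± 0.078 (limma, adjusted p = 1.21e-06). In the share of peaks, MV4-11 was at -0.62 ± 0.062 relative to OCI-AML3 in this bin and MOLM13 at 0.022 ± 0.062. By that measure the bin was no exception. MV4-11 was lower still at 75 to 80 Mb (-0.75) and at 85 to 90 Mb (-0.79). MOLM13 minus OCI-AML3 did not pass in 6 of the 19 bins that lie wholly on 8q.

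The first 20 Mb of 8p departed from the rest of the arm. MV4-11 was lower than OCI-AML3 in 4 of 4 bins, by -0.41 to -0.24, and MOLM13 was lower in 2 of 4, with differences from -0.22 to 0.079. In the rest of 8p, from 20 to 45 Mb, MOLM13 exceeded OCI-AML3 in 5 of 5 bins, while MV4-11 was higher in 1 of 5. By its mean, OCI-AML3 had the highest background of the lines in 3 of the first 4 bins, and MOLM13 in all bins from 20 to 135 Mb.

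**Figure D3:**
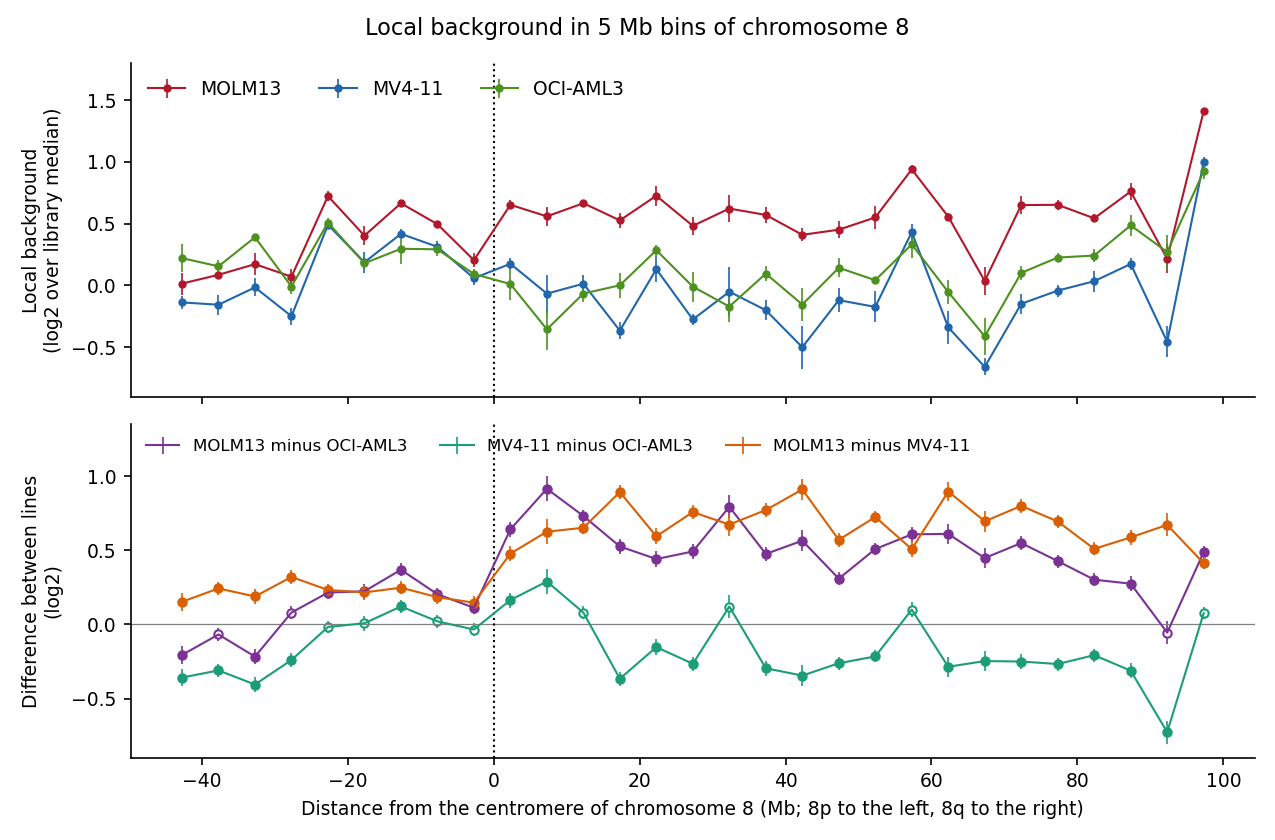
Local background along chromosome 8 in bins of 5 Mb, plotted by distance from the centromere. Top: log2 background relative to all autosomal regions, mean and SD of the 4 libraries of each line. Bottom: differences between lines with 1 SE, filled where the adjusted p was under 0.05. The MOLM13 differences step up from 0.15 and 0.11 in the last 8p bin to 0.48 and 0.64 in the next.

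Which sites were open was compared on merged regions. Chromosome 8 had 28572 of the 328658 autosomal regions. Of these, 5.30% were called in all 12 libraries and 61.9% in a single library, against 7.11% and 54.9% on the other autosomes. Regions called in all 4 libraries of one line and in no other library numbered 42 in MOLM13, with 331 for MV4-11 and 66 for OCI-AML3. They made up 10.3%, 5.06% and 8.15% of all such autosomal regions of the line. For comparison, of all regions that the 4 libraries of a line shared, whether or not another line had them, chromosome 8 held 7.74%, 6.28% and 6.41%.

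The strongest chromosome 8 regions open in all 12 libraries were promoters of broadly used genes, all on 8q. They belonged to VCPIP1 and OTUD6B, which encode deubiquitinases, ELOC, a subunit of elongin and of ubiquitin ligases, DEPTOR, an inhibitor of mTOR, and NUDCD1. The VCPIP1 promoter (chr8:66666612-66667835, hg38) had a fold of 14.2 to 16.4 in MOLM13, with 13.4 to 15.4 for MV4-11 and 15.1 to 16.1 for OCI-AML3. The OTUD6B promoter (chr8:91069602-91070777) reached a fold of 17.9 to 20.3 in MOLM13, with 17.6 to 21.3 for MV4-11 and 18.3 to 18.9 for OCI-AML3. The fold ranges of the lines overlapped at both promoters. By −log10 p they did not all do so, since VCPIP1 had 129 to 170 in MOLM13, with 111 to 132 for MV4-11 and 80.1 to 90.3 for OCI-AML3.

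On the 1513 chromosome 8 regions called in all 12 libraries, the reads over the summit were divided by the median of all such autosomal regions of the library and compared with limma over 22839 regions. That median was 19 to 26 reads in MOLM13, with 34 to 38 for MV4-11 and 18 to 21 for OCI-AML3, so that the raw reads given below must be read against it. On chromosome 8 alone the median was 26 to 36 reads in MOLM13, with 35 to 39 for MV4-11 and 19 to 22 for OCI-AML3. The chromosome stood well above the library's median in each MOLM13 library and within 2 reads of it in the other 8.

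MOLM13 exceeded MV4-11 at 787 of the 1513 regions and was lower at 49, where 14.9% of all regions were higher and 7.65% lower. It exceeded OCI-AML3 at 745 and was lower at 112 (17.2% and 15.5% over all regions). MV4-11 was higher than OCI-AML3 at 197 and lower at 279 (11.1% and 17.2%). The median log2 difference over the chromosome 8 regions was 0.50, 0.44 and -0.066 for the 3 pairs, and over all regions it was 0.063, 0.012 and -0.053. The regions were also compared on the rank of the fold, which divides out the background only in part. By this rank MOLM13 was higher than MV4-11 at 51 of the chromosome 8 regions and lower at 47. Over all regions, 1.34% were higher and 3.15% lower. Against OCI-AML3, MOLM13 was higher at 172 and lower at 82 (4.25% and 4.76% over all regions). MV4-11 was higher than OCI-AML3 at 173 and lower at 112 (7.45% and 6.47%).

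The arms again differed. For MOLM13 against MV4-11 the median was 0.27 over 460 regions of 8p and 0.60 over 1053 of 8q, and against OCI-AML3 it was 0.26 and 0.54. For MV4-11 against OCI-AML3 it was -0.0034 and -0.10. MOLM13 was higher than MV4-11 at 28.9% of the 8p regions and at 62.1% of the 8q regions. MOLM13 exceeded OCI-AML3 at 272 of 367 promoter regions of chromosome 8 and was lower at 10, with a median of 0.57. Away from promoters it was higher at 473 of 1146 regions and lower at 102. On the other autosomes 19.3% of 8752 promoter regions were higher and 11.7% lower, with a median of 0.069. Of their 12574 regions away from promoters, 11.8% were higher and 19.2% lower, with a median of -0.088.

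**Figure D4:**
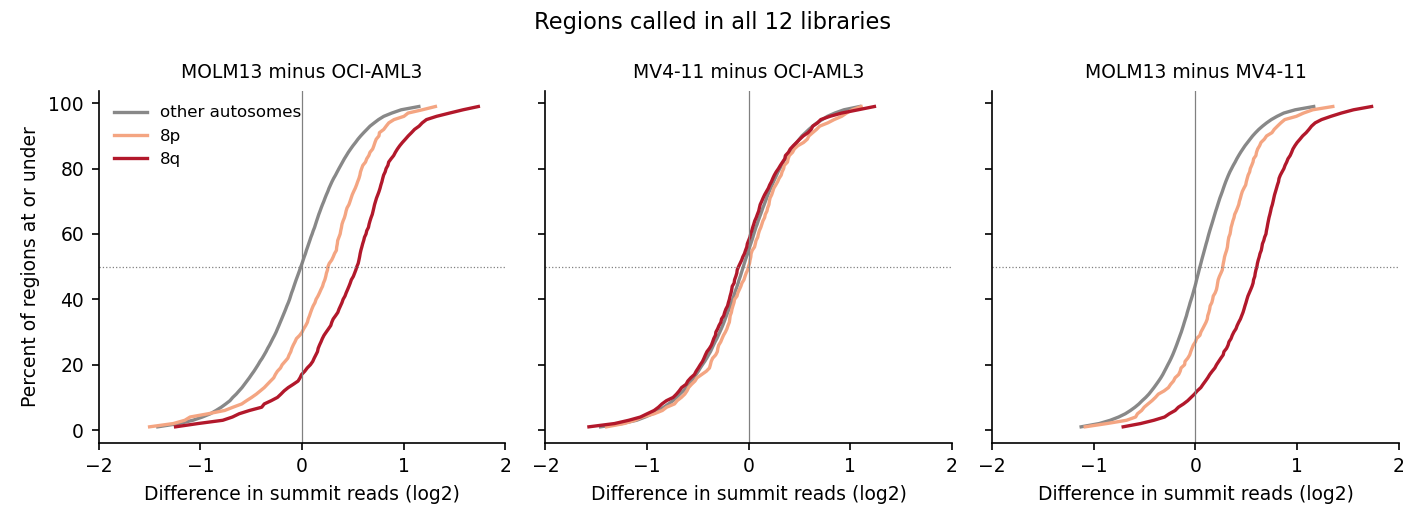
Cumulative percent of regions called in all 12 libraries (y) against the log2 difference in summit reads between lines (x), from percentile 1 to 99, for 8p, 8q and the other autosomes. For MOLM13 the 8q curve lies to the right of 8p and of the other autosomes, with medians of 0.60 and 0.54 on 8q. For MV4-11 minus OCI-AML3 the medians of 8p and 8q are -0.0034 and -0.10.

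Single regions departed from this general shift in both directions. The 3 differences between MOLM13 and MV4-11 with the smallest p were at promoters. The promoter of the long noncoding RNA ZFPM2-AS1 (chr8:106059736-106060875) had 54, 58, 67 and 93 reads in MOLM13, with 8, 11, 12 and 8 for MV4-11 and 33, 15, 30 and 19 for OCI-AML3. MV4-11 was below both other lines with no overlap, and MOLM13 exceeded it by 3.43 ± 0.22 (limma, adjusted p = 3.56e-17).

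The promoter of LAPTM4B, which encodes a lysosomal membrane protein, had 50, 62, 55 and 48 reads in MOLM13, with 18, 19, 9 and 13 for MV4-11 and 31, 39, 31 and 24 for OCI-AML3. MOLM13 exceeded MV4-11 by 2.56 ± 0.18 and MV4-11 fell below OCI-AML3 with a difference of -2.02 ± 0.18 (limma, adjusted p = 7.09e-16 and 1.66e-12). ARC, a gene of synaptic plasticity in neurons, showed the same order at its promoter, with 2.37 ± 0.18 and -1.74 ± 0.18 for these pairs. A region 308 kb from the start of the syntrophin gene SNTB1 (chr8:121119740-121120355) had 46, 38, 41 and 57 reads in MOLM13 against 9 to 10 for MV4-11 and 7 to 15 for OCI-AML3, both of them below every MOLM13 library, with 2.92 ± 0.23 for MOLM13 against MV4-11.

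Lower in MOLM13 than in MV4-11 was a region inside CSMD1, a large gene of 8p (chr8:4391151-4392139), with 10, 10, 5 and 8 reads in MOLM13 and 52, 60, 71 and 53 in MV4-11. Its difference was -2.24 ± 0.22 (limma, adjusted p = 4.06e-11), and OCI-AML3 lay between them with 13 to 20 reads. The others named by rank were nearest to LY6L (-1.78 ± 0.22), MYOM2 (-1.33 ± 0.20), LINC01030 (-1.11 ± 0.17) and LINC02055 (-1.21 ± 0.19). All of these lay outside promoters.

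Among regions higher in MOLM13 than in OCI-AML3, the smallest p was inside the long noncoding RNA gene MAILR (chr8:102886795-102887374). MOLM13 had 102, 92, 89 and 141 reads there against 17, 36, 17 and 18 in OCI-AML3. MV4-11 had 73 to 83 there, so OCI-AML3 was the low line with no overlap, and the MOLM13 difference was 2.07 ± 0.15 (limma, adjusted p = 3.39e-15). The same held inside COLEC10, which encodes a collectin, with 2.52 ± 0.19, and inside PXDNL with 2.43 ± 0.18. At the promoter of TPD52, a gene of vesicle traffic, MOLM13 had 82, 70, 72 and 86 reads, MV4-11 50, 59, 51 and 42, and OCI-AML3 15, 21, 15 and 16. The 3 lines did not overlap in raw reads, and the difference from OCI-AML3 was 1.97 ± 0.15 (limma, adjusted p = 2.19e-14). Inside OXR1, a gene of oxidation resistance, it was 1.71 ± 0.15.

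Lower in MOLM13 than in OCI-AML3 was a region 86.8 kb from the start of ZMAT4 on 8p (chr8:40984342-40984949), with 11, 17, 10 and 10 reads in MOLM13 and 33, 41, 37 and 39 in OCI-AML3. The difference was -1.93 ± 0.20 (limma, adjusted p = 2.85e-10). The sarcoglycan gene SGCZ held another 2 such regions, at -1.90 ± 0.23 and -1.72 ± 0.22. The remaining 2 were nearest to RUNX1T1 (-1.24 ± 0.15) and to YTHDF3-DT (-1.54 ± 0.19).

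Between MV4-11 and OCI-AML3, a region inside LYN (chr8:55990900-55991581), the gene of a SRC family kinase of blood cells, had 86, 76, 77 and 70 reads in MV4-11 against 13, 16, 16 and 9. The difference was 1.66 ± 0.16 (limma, adjusted p = 3.24e-11), and MOLM13 had 38 to 62. Regions inside PXDNL, ZNF704 and FBXO16 were higher in MV4-11 by 1.42 to 1.69. The region in SGCZ at chr8:14655643-14656119 had 11, 12, 11 and 7 reads in MV4-11 against 37, 33, 43 and 41 in OCI-AML3, a difference of -2.82 ± 0.23 (limma, adjusted p = 3.32e-13). A region in SLA, which encodes an adaptor that dampens signalling from antigen receptors, was at -2.21 ± 0.19.

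The promoters of protein-coding genes were then described by role. Of 668 protein-coding genes of chromosome 8 with a known strand, 371, or 55.5%, had a promoter called in all 12 libraries, against 53.2% on the other autosomes. On 8p the share was 45.5% and on 8q 62.2%. Lists of 109 chromosome 8 genes in 6 roles were read for these promoters. Of the 80 promoters tested for summit reads, MOLM13 exceeded OCI-AML3 at 60 and was lower at 3, split into 12 higher of 23 on 8p and 48 of 57 on 8q. MOLM13 exceeded MV4-11 at 64 and was lower at 2. MV4-11 was higher than OCI-AML3 at 5 and lower at 9. The shares over all regions are those given above (17.2%, 14.9% and 11.1% higher). Over all 367 promoter regions of chromosome 8, 74.1%, 78.2% and 5.99% were higher for the same pairs, so the listed genes were near their chromosome. The lists also differ in how many genes lie on each arm, so their counts do not compare roles.

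Among 14 chromatin and transcription regulators, 13 promoters were called in all 12 libraries and 10 were higher and 1 lower in MOLM13 than in OCI-AML3, with a median of 0.60. KAT6A on 8p, which encodes the histone acetyltransferase MOZ, had 64, 59, 63 and 59 reads in MOLM13, with 51, 67, 58 and 49 for MV4-11 and 30, 39, 29 and 25 for OCI-AML3. Relative to the library medians, MOLM13 exceeded OCI-AML3 by 0.76 ± 0.14 and MV4-11 by 0.77 ± 0.14 (limma, adjusted p = 3.56e-05 and 4.28e-05). MV4-11 and OCI-AML3 differed by -0.014 ± 0.14 (adjusted p = 0.955), although the raw reads of MV4-11 were higher in every library.

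TCEA1, an elongation factor of RNA polymerase II, had the widest MOLM13 difference of the named regulators, 1.18 ± 0.13 against OCI-AML3 (limma, adjusted p = 1.74e-09). INTS8, a subunit of Integrator, was at 0.78 ± 0.12, TAF2, a subunit of TFIID, at 0.73 ± 0.12 and PHF20L1, a reader of methylated lysine, at 0.60 ± 0.13. On 8p, ASH2L, a core subunit of MLL methyltransferase complexes, was at 0.38 ± 0.12 and INTS9, another Integrator subunit, at 0.24 ± 0.11, which did not pass (adjusted p = 0.103). The lower one was NCOA2, a coactivator of nuclear receptors, with 11, 10, 8 and 8 reads in MOLM13 and 10, 14, 13 and 11 in OCI-AML3, which overlap in raw reads (-0.63 ± 0.24, adjusted p = 0.0394). No peak was called within 1 kb of the ELP3 start used here, and the nearest region called in all 12 libraries lay 2.41 kb away.

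Of 18 transcription factors, 12 had a promoter called in all 12 libraries. MOLM13 exceeded OCI-AML3 at 6 and was lower at 2. The MYC promoter (chr8:127735091-127736540) had 77, 65, 75 and 71 reads in MOLM13, with 52, 65, 67 and 81 for MV4-11 and 32, 44, 44 and 37 for OCI-AML3. MOLM13 lay above OCI-AML3 by 0.63 ± 0.13 and above MV4-11 by 0.77 ± 0.13 (limma, adjusted p = 0.000232 and 1.81e-05), and MV4-11 minus OCI-AML3 was -0.14 ± 0.13 (adjusted p = 0.463). CEBPD, a factor of myeloid differentiation close to the centromere on 8q, had 79, 79, 97 and 78 reads in MOLM13 and 48, 50, 39 and 39 in OCI-AML3 (0.67 ± 0.12, adjusted p = 3.59e-05).

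The Notch target HEY1 was at 0.64 ± 0.13, the zinc finger factor PLAG1 at 0.53 ± 0.12 and the cell cycle factor E2F5 at 0.45 ± 0.14 for MOLM13 against OCI-AML3. E2F5 and ZHX1, a repressor, were also 2 of the 6 factors lower in MV4-11 than in OCI-AML3, at -0.68 ± 0.14 and -0.51 ± 0.11. SNAI2, a factor of epithelial to mesenchymal transition, was at -0.57 ± 0.20 in MOLM13 against OCI-AML3.

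The other factors were open in some libraries only. RUNX1T1, the partner of RUNX1 in a common AML fusion, had a promoter peak in 4 of 4 OCI-AML3 libraries, with 25, 28, 25 and 25 reads, and in 0 of 8 of the others. The SOX7 promoter was called in the MOLM13 controls alone, with 17 and 20 reads. EYA1 and SOX17 were called in 5 libraries each and GRHL2 in 3, with 6 to 13 reads. A promoter without a peak here was not called, which at these depths does not show that it was closed.

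Among 19 immune signalling and myeloid genes, 16 promoters were called in all 12 libraries. MOLM13 exceeded OCI-AML3 at 6 of the 15 that could be tested. LY96 encodes MD-2, the partner of the lipopolysaccharide receptor TLR4. Its promoter had 33, 46, 47 and 62 reads in MOLM13, with 44, 68, 48 and 53 for MV4-11 and 10, 12, 13 and 13 for OCI-AML3. OCI-AML3 was far below both, with 1.69 ± 0.17 for MOLM13 and 1.24 ± 0.17 for MV4-11 (limma, adjusted p = 5.37e-11 and 1.36e-07).

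The LYN promoter had 47, 54, 58 and 55 reads in MOLM13, with 54, 53, 46 and 46 for MV4-11 and 24, 36, 34 and 26 for OCI-AML3, and MOLM13 exceeded OCI-AML3 by 0.60 ± 0.15 (limma, adjusted p = 0.0011), whereas MV4-11 did not pass at -0.15 ± 0.15. RIPK2, a kinase of NOD receptor signalling, was at 0.73 ± 0.13 and TNFRSF10A, a TRAIL receptor on 8p, at 0.83 ± 0.14. PTK2B, a kinase of the focal adhesion family on 8p, was at 0.0015 ± 0.14 and did not pass. The promoter of BLK, a SRC family kinase of B cells, was called in 3 MV4-11 libraries only, with 17 to 20 reads. MSR1, a macrophage scavenger receptor, was called in 10 libraries and IDO1, an enzyme of tryptophan breakdown, in 9.

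Of the genes of DNA replication, repair and cohesion, all 19 promoters were called in all 12 libraries, and 18 were higher in MOLM13 than in OCI-AML3, with a median of 0.63. RAD21, a cohesin subunit, had 92, 96, 94 and 134 reads in MOLM13, with 106, 96, 126 and 101 for MV4-11 and 59, 62, 62 and 48 for OCI-AML3 (0.58 ± 0.12 for MOLM13 against OCI-AML3, limma, adjusted p = 0.000147). NBN, which senses DNA breaks, was at 0.78 ± 0.11 and RRM2B, a ribonucleotide reductase subunit, at 0.59 ± 0.11. PRKDC, a kinase of end joining, and MCM4, a helicase subunit, start from 1 shared region and counted as 2 genes, at 0.87 ± 0.12. CDCA2 on 8p was the one that did not pass, at 0.25 ± 0.11 (adjusted p = 0.0658).

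For 18 genes of translation and energy supply, 18 promoters were called in all 12 libraries and 18 were higher in MOLM13 than in OCI-AML3, with a median of 0.71. RPS20, a ribosomal protein gene, had 85, 125, 126 and 119 reads in MOLM13, with 90, 107, 106 and 109 for MV4-11 and 41, 45, 48 and 48 for OCI-AML3, a difference of 1.05 ± 0.12 (limma, adjusted p = 7.18e-10). RPL7, another, was at 0.79 ± 0.11, PABPC1, the poly(A) binding protein, at 0.64 ± 0.11 and EIF3H, a subunit of an initiation factor, at 0.54 ± 0.11. ATP6V1H, a subunit of the vacuolar proton pump, was at 1.22 ± 0.13, and was also higher in MV4-11 than in OCI-AML3, by 0.46 ± 0.13 (limma, adjusted p = 0.00418).

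Genes of other tissues served as a contrast. Of 21, 3 promoters were called in all 12 libraries and 8 in none, among them CYP7A1 of bile acid synthesis, TG of the thyroid, SLC30A8 of pancreatic beta cells and the steroid hydroxylases CYP11B1 and CYP11B2. CRH, which encodes a hormone of the hypothalamus, was open in every library, with 66, 64, 69 and 63 reads in MOLM13 and 34, 38, 29 and 25 in OCI-AML3 (0.82 ± 0.14, adjusted p = 9.18e-06, limma). DEFB1, an epithelial defensin gene on 8p, had 12, 16, 23 and 22 reads in MOLM13, with 59, 56, 57 and 58 for MV4-11 and 15, 21, 13 and 21 for OCI-AML3. It was the member lower in MOLM13 than in MV4-11, at -1.06 ± 0.19 (limma, adjusted p = 2.62e-05). GATA4 of heart and gut was called in 4 MV4-11, 3 OCI-AML3 and 0 MOLM13 libraries, with 7 to 15 reads.

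**Figure D5:**
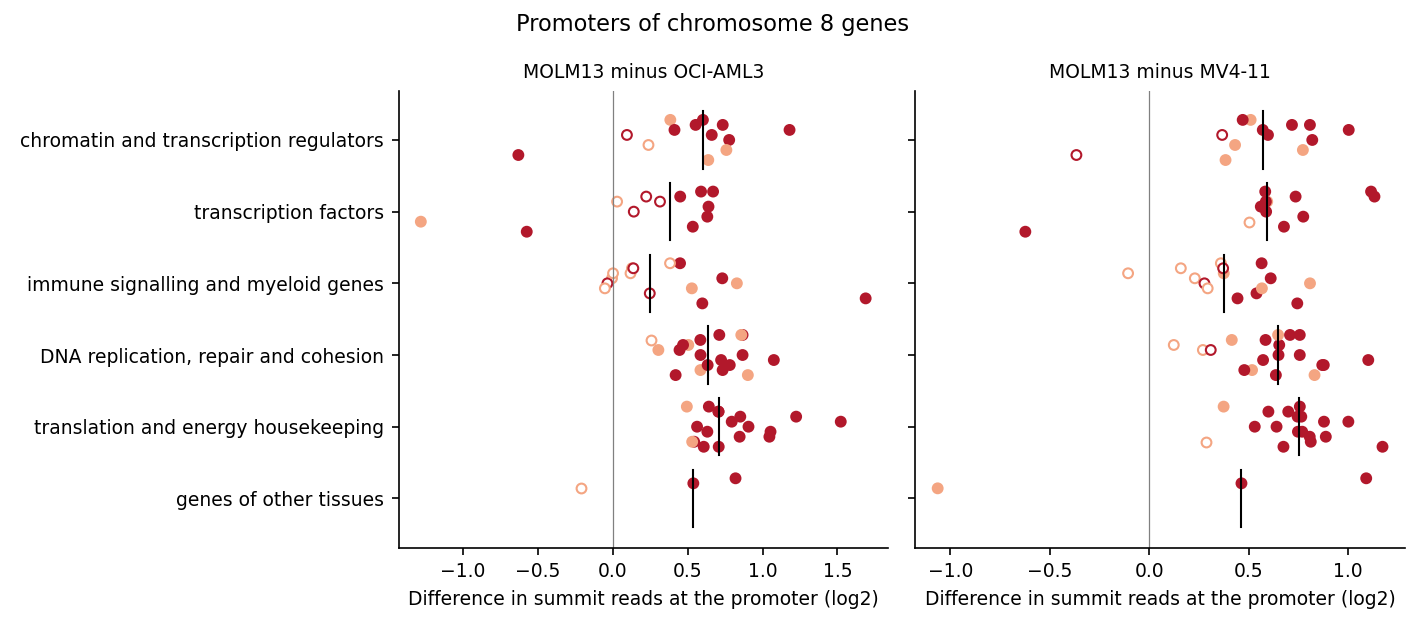
Log2 difference in summit reads at the promoters of 6 lists of chromosome 8 genes, for MOLM13 minus OCI-AML3 and MOLM13 minus MV4-11. Each point is a gene, dark for 8q and light for 8p, filled where the adjusted p was under 0.05, and the vertical bar is the median of the list. Most points lie to the right of 0, with medians of 0.63 and 0.71 for the repair and housekeeping lists against OCI-AML3.

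No measure of the whole chromosome passed the test between treated and control cells after adjustment. The share of chromosome 8 was 0.090 percentage points higher after VTP50469 as a mean over lines, with -0.043 in MOLM13, with 0.15 for MV4-11 and 0.16 for OCI-AML3 (exact permutation test within lines, p = 0.417). The log2 ratio of the fold fell by 0.024, with p = 0.0278 in the exact permutation test and 0.111 after adjustment over 4 measures. That design can reach a p of 0.00926. In MV4-11 the ratio was -0.11 in treated cells and -0.060 in controls, and in OCI-AML3 -0.14 and -0.12, with both treated libraries below both controls in these lines, while the libraries of MOLM13 overlapped (-0.12 in both). The log2 ratio of the summit −log10 p was lower after VTP50469 in all 3 lines, by a mean of -0.051 (exact permutation p = 0.0648, adjusted p = 0.13). Treated and control libraries were apart in MV4-11, at -0.12 and -0.044, and overlapped in the other lines. The log2 ratio of the local background over all peaks was higher by a mean of 0.013 (exact permutation p = 0.315, adjusted p = 0.417). Both treated MOLM13 libraries were above both controls in it, with means of 0.53 and 0.51, and the libraries of the other lines overlapped. Of 39 arms, 0 differed in share or background by limma at an adjusted p under 0.05 (0% of all arms), and of 29 chromosome 8 bins 0 differed in either measure, with 1 bin in share and 2 in background at an unadjusted p under 0.05, which 8.93% and 9.88% of all bins passed. Over all autosomal arms and bins the adjusted share was likewise 0%.

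Of the 1513 regions called in all libraries, 0 differed in summit reads between treated and control cells by limma (0% of all regions), and 154 did at an unadjusted p under 0.05, which 7.73% of all regions passed. The sensitivity of this comparison was not simulated. For MOLM13 against OCI-AML3, reads of 22839 regions were simulated, with 100 regions shifted by 0.5 and another 100 by 1 on the log2 scale. Of these, 3% and 54% were recovered. With so few shifted regions the adjustment is stricter than in the data, where 32.7% of all regions were called for this pair. These percentages are therefore not the recovery in the data. Within single lines, limma on the rank of the fold called 0 of 3145 chromosome 8 regions in MOLM13, with 0 of 4309 for MV4-11 and 0 of 1937 for OCI-AML3 (0% of all regions in each line). At an unadjusted p under 0.05 there were 68 higher and 85 lower, 117 and 168, and 52 and 64, where 5.6%, 6.59% and 5.81% of all regions passed. On summit reads, limma also called 0 in each line (0% of all regions). The unadjusted counts were then 57 higher and 123 lower, 130 and 185, and 72 and 65, with 6.65%, 7.3% and 6.64% of all regions.

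Regions that both controls of a line held and both treated libraries lacked were counted as losses, and the reverse as gains, without a test. MOLM13 had 190 such losses and 446 gains on chromosome 8, or 1.21% and 2.85% of its regions, against 1.31% and 3.24% on the other autosomes. MV4-11 had 371 losses and 292 gains, or 2.54% and 2.0% of its chromosome 8 regions, against 2.75% and 1.90% elsewhere. OCI-AML3 had 285 and 152, or 2.26% and 1.20%, against 2.56% and 1.33%. The strongest loss in MV4-11 by −log10 q of the weaker control lay 102 kb from the start of CDH17, a cadherin gene (chr8:94115641-94115801), followed by one inside GTF2E2, a subunit of a general transcription factor, 2.14 kb from its start. The strongest gains were inside TMEM71 and EIF3H.

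In MOLM13 the strongest loss was 57.7 kb from the start of SNAI2 (chr8:48979091-48979233) and the strongest gain 117 kb from that of LINC02235 (chr8:81959216-81959371). In OCI-AML3 they lay inside NDUFAF6, a gene of respiratory complex I assembly, and inside ASAP1, which encodes a GTPase activating protein of the actin cytoskeleton. The number of all peaks also differed between the libraries of a line, and its part in these counts was not tested.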

How the data were processed

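ATAC-seq peak lists of 12 libraries were analysed, 2 in each of 6 groups, grouped by the sample labels. Per the labels, the authors ran MACS2 2.1.0 after Bowtie 1.1.2, Trimmomatic 0.33 and bcl2fastq 2.17, with build hg38 and deepTools also listed, and the supplementary methods name another aligner. Peaks were called in each library separately. The handling of duplicates and of read shifts is not given in the sources used here. The deposited ratio is the fold over local background with 1 read added to both. The deposited −log10 p and −log10 q belong to the summit, and the deposited score and summit offset were not compared. None of these values had been normalised between libraries.

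Whole summit reads and the background were recovered from fold and p within 0.001 in 99.9911% or more of each library's peaks. Summit reads are not independent molecules, and sequencing totals are not in the lists. Peaks overlapping by 1 bp were merged. Bins of 5 Mb needed 20 peaks on average and arms 200. Background was taken as the median over regions called in all 12 libraries, with at least 10 a bin. Gene positions came from RefSeq (GRCh38.p14) and strands from GENCODE. Single measures were tested by two-sided exact permutation of libraries, and arms, bins and regions with limma 3.58.1 in R 4.3.3 on 6 group means, with Benjamini-Hochberg adjustment over all features. Scripts were tested on simulated data. Alternatives were a stricter peak threshold, equal numbers of peaks, other bins, scalings and denominators, a replicate block and leaving out each library.

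The members, gene lists and tests were chosen with earlier results of these data known. Named regions were the 5 with the smallest p in each direction and pair, the 5 strongest and the 3 strongest lost and gained per line. Named genes were the 6 strongest and the 4 least often called promoters of a list, KAT6A, MYC, CEBPD, LYN, RUNX1T1, LY96 and EYA1, and some genes that were singled out after their values were seen, such as NCOA2, SNAI2, RAD21 and GATA4. A result for 1 item is not reported here.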

Additional observations from a re-analysis of the deposited data

How the results depend on the processing

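Of 952 recomputed values, 877 kept their direction and their side of the threshold, or stayed within 1.5 times for counts. The replicate numbers did not pair the libraries: the deviations of same-numbered libraries of a line correlated at 0.0456, 0.0486 and 0.00608. With a replicate block only 36 splits remain and no p can be under 0.0556, so that the tests of the share (1.08, -0.65 and 1.73 percentage points), of the background of 8q over 8p (0.36 and 0.41) and of the percent on 8q (3.15, -0.52 and 3.67) could not pass, at unchanged values. The other permutation tests of 4 against 4 libraries have the same limit and were not run with the block. In the limma fits it changed no call of 8p or 8q and moved no count by over 1.5 times.

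With peaks of −log10 q of at least 5, MV4-11 minus OCI-AML3 became -0.15 points in share (adjusted p = 0.0857, exact permutation test), -0.045 on 8p and -0.030 on 8q, MOLM13 minus OCI-AML3 on 8p became 0.15 and passed, and treated minus control turned to -0.048 points and, on 8p, -0.033. Bins lower on chromosome 8 became 0 for MOLM13 and 7 for MV4-11 against OCI-AML3, and regions 69 lower for MOLM13 and 115 higher and 185 lower for MV4-11. By bases covered, MOLM13 minus OCI-AML3 on 8p was 0.099. The fold ratio for MOLM13 minus OCI-AML3 was 0.12 on shared regions and -0.027 away from promoters. For MV4-11 minus OCI-AML3 it was 0.045, 0.097, 0.038 and -0.017 (strict, equal numbers of peaks, means, away from promoters), and for MOLM13 minus MV4-11 -0.034, -0.049, -0.032 and, on shared regions, 0.11. The −log10 p ratio was 0.11, 0.16, 0.36 and 0.089 for MOLM13 minus OCI-AML3 (strict, equal numbers, shared, means), 0.072, 0.20 and 0.070 for MV4-11 minus OCI-AML3 (strict, equal numbers, means) and 0.043, 0.35 and 0.019 for MOLM13 minus MV4-11 (strict, shared, means). The background for MV4-11 minus OCI-AML3 was 0.075 with equal numbers, -0.16 on shared regions and 0.0014 by means. With equal numbers, 3 bins were higher in MV4-11 than in OCI-AML3. In 10 Mb bins the counts were 10 higher for MOLM13 against OCI-AML3, 3 higher and 8 lower for MV4-11 against OCI-AML3 and 13 higher for MOLM13 against MV4-11. In 2 Mb bins they were 29 higher and 5 lower, 12 and 31, and 54 and 1. By rank of the fold, 172 regions were higher for MOLM13 and 112 lower for MV4-11 against OCI-AML3, and 51 higher for MOLM13 against MV4-11. The causes were not tested.

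Leaving out 1 library gave -0.76 to -0.59 points for the share of MV4-11 minus OCI-AML3, and without any one MV4-11 library the adjusted p was 0.0571. The fold ratio ran from 0.037 to 0.061 for MV4-11 minus OCI-AML3 and from -0.049 to -0.025 for MOLM13 minus MV4-11, both past the threshold without the second treated MV4-11 library. The −log10 p ratio ran from -0.012 to 0.028 for MOLM13 minus OCI-AML3 and from -0.031 to 0.0088 for MOLM13 minus MV4-11. The 8p share of MOLM13 minus OCI-AML3 ran from 0.011 to 0.061, the bins higher in MV4-11 than in OCI-AML3 from 2 to 5 (2 without either MV4-11 control or the first treated OCI-AML3 library), and the treated 8q background from -0.0018 to 0.027.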

Other observations

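The 2 Mb after the start of MYC, which hold distant enhancers of MYC in blood cells, held peaks in every library. MOLM13 had 111, 143, 143 and 135, MV4-11 147, 148, 134 and 162, and OCI-AML3 78, 108, 89 and 86. Merged over the libraries they made 426 regions, of which 28 were called in all 12 libraries and 238 in a single one. MOLM13 exceeded OCI-AML3 at 12 of the 28 in summit reads and was lower at 4. It exceeded MV4-11 at 9 and was lower at 1. MV4-11 was higher than OCI-AML3 at 3 and lower at 6 (limma). Over all regions, 17.2%, 14.9% and 11.1% were higher and 15.5%, 7.65% and 17.2% lower for these pairs. Over the whole of 8q, 56.0%, 62.1% and 12.6% were higher and 6.17%, 2.28% and 19.6% lower. The MOLM13 medians over the 28 were 0.42 and 0.33, below the 8q medians of 0.54 and 0.60. Treated and control cells differed at 0 of the 28.

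The strongest of these regions (chr8:129489207-129489765) lay 1747 kb after the start of MYC and had 32, 39, 44 and 70 reads in MOLM13, with 51, 82, 50 and 58 for MV4-11 and 33, 44, 27 and 36 for OCI-AML3. The 3 differences between lines did not pass, with 0.11 ± 0.15 for MOLM13 minus OCI-AML3 (limma, adjusted p = 0.63). The next but one (chr8:129269140-129269809), 1527 kb after the start, had 44, 40, 45 and 52 reads in MOLM13 and 23, 27, 27 and 15 in OCI-AML3, a difference of 0.75 ± 0.17 (limma, adjusted p = 0.00035). This stretch was chosen after values of the chromosome were seen.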
